A study of Mus musculus with 12 samples.

Results

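The genes described are 38 antioxidant, glutathione and NADPH genes of the mouse, taken by name from a list of NRF2 target, glutathione, peroxiredoxin, superoxide dismutase, metallothionein and pentose phosphate genes. Each of the 38 matched 1 of the 37991 gene identifiers in the count files, and all 38 were among the 16163 genes with enough reads to be tested. Poly(A) RNA of embryonic fibroblasts, taken 6 days after adipocyte differentiation was started, was sequenced in 12 libraries. The cells were C57BL/6N, came from male embryos at E15.5, had been cultured for 4 passages, and all received the same cocktail of isobutylmethylxanthine, dexamethasone, rosiglitazone and insulin. There were 4 genotypes with 3 libraries each: wild type (WT); Gadd45a-deficient (Gadd45a-KO); Ing1-deficient (Ing1-KO); and deficient in both (DKO), obtained by interbreeding the 2 mutant mouse lines. Whether the 3 libraries of a genotype came from separate embryos or cultures is not given in the sources used here, so p-values measure only the spread between these libraries.

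Cells meet reactive oxygen with layered enzymes. Superoxide dismutases turn superoxide into hydrogen peroxide, and peroxiredoxins and glutathione peroxidases reduce peroxides with electrons that come through thioredoxin or glutathione. Both carriers are recharged by reductases that spend NADPH, which the pentose phosphate pathway and malic enzyme supply. The transcription factor NRF2, held low by its adaptor KEAP1, switches on many of these genes through the antioxidant response element, while metallothioneins bind zinc and copper and answer to metal through MTF1. Adipocytes also spend NADPH on making fatty acids, and malic enzyme rises in adipogenesis.

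Depth was even: gene reads per library ran from 42891627 to 52860419. Ing1 followed its label, at 43.6 to 47.9 CPM (gene reads scaled to library size, after TMM normalization) in the 6 libraries not labelled Ing1-deficient and 0.681 to 1.60 CPM in the other 6. Gadd45a went against its label: it lay at 13.4 to 18.4 CPM in WT and Ing1-KO but between 138 and 144 CPM in those labelled Gadd45a-KO or DKO. Since the counts are per gene and not per exon, the lesion itself cannot be checked here, and those 6 libraries are called by their labels. Of 17 adipocyte markers, 15 were called lower in the libraries labelled DKO than in WT. Their summed level was 2229 to 4547 CPM in WT, 1512 to 2034 in the Gadd45a-KO-labelled libraries, 483 to 3992 in Ing1-KO and 476 to 555 in those labelled DKO. Of 12 macrophage and leukocyte markers, 5 were called higher in the libraries labelled DKO than in WT, with sums of 6573 to 7100 CPM against 3707 to 4279. Other markers differed too. The 10 fibroblast markers, 1 of them called lower, summed to 47688 to 52371 CPM in the libraries labelled DKO, below WT (54463 to 58987 CPM) and all other libraries. Of 8 contractile markers 4 were called higher there (6293 to 9597 CPM in sum, against 5078 to 6383 in WT), and of 8 cartilage markers 4 higher and 1 lower (763 to 947 CPM against 540 to 598). In Ing1-KO 3 of the 8 cartilage markers were called higher than in WT, at 811 to 1032 CPM in sum. The part of these 3 lists in the results was not tested. In bulk RNA, fewer cells of a type and less RNA per cell cannot be told apart.

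Promoter sequence was read from RefSeq (GRCm38.p6), from 250 bases before to 50 after each start. This is another build than that of the counts and serves for sequence only. Windows were found for 33 of the 38 genes, and none was found for Prdx6, Gclc, Gsta4, Gsr and Sod3. The core of the antioxidant response element, TGACNNNGC on either strand, stood in at least 1 window of 11 of the 33 genes. It stood in 26.2% of their 42 windows and in 12.4% of all 32851 promoter windows. The 4 stretches that follow each hold it, and were picked after the expression values had been seen, to show the element beside genes of different behaviour: Gclm, which was higher in the libraries labelled DKO, Prdx1 and Txnrd1, 2 textbook NRF2 targets that were not called, and Mgst1, which was lower. Capitals mark the core, here on the minus strand in all 4.
Gclm (chr3:122245397-122245456, plus strand): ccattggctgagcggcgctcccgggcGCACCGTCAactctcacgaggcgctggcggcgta
Prdx1 (chr4:116685439-116685498, plus strand): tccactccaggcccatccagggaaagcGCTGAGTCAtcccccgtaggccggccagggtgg
Txnrd1 (chr10:82859086-82859145, plus strand): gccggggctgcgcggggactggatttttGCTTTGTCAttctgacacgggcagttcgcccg
Mgst1 (chr6:138140442-138140501, plus strand): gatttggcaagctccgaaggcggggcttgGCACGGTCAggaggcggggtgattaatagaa

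In Gclm the antioxidant core overlaps a metal core. The core of the metal response element, TGCACNC or TGCGCNC on either strand, stood in a window of 9 of the 33 genes. Its share was 23.8% of their 42 windows and 25.7% of all windows. The metallothionein promoters are shown because they hold it several times, 3 times in Mt1 and 4 times in Mt2. Capitals mark 1 of these cores in the Mt1 stretch and 2 in the Mt2 stretch, the later of them on the minus strand; the Mt2 stretch also holds the antioxidant core, left in lower case, between them.
Mt1 (chr8:94179029-94179088, plus strand): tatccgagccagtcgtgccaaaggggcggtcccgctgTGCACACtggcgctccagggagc
Mt2 (chr8:94172478-94172577, plus strand): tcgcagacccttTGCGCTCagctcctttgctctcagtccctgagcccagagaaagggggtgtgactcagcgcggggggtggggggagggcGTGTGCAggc

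Of the 12 genes called between the libraries labelled DKO and WT, 9 had a window and 3 of these held the antioxidant core: Gclm, Mgst1 and Me1. Of the 26 that were not called, 24 had a window and 8 held it. A match to these letters is a description, and no binding was measured.

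Per length of annotated exon, the most abundant of the 38 in WT was Prdx1, a cytosolic peroxiredoxin, at 164 CPM per kb. It was followed by Txn1, cytosolic thioredoxin, at 149, Mt2 at 136, Gpx8, a peroxidase of the endoplasmic reticulum, at 113, and Gpx4, which reduces lipid peroxides, at 105 CPM per kb. The lowest were Nqo1, a quinone reductase and a standard NRF2 reporter gene, at 5.36, the transferase Gsta4 at 2.39 and the microsomal transferase Mgst2 at 0.435 CPM per kb. The 3 WT libraries differed little for most of the genes: the median coefficient of variation was 5.0%, against 5.61% over all genes tested. In Ing1-KO it was 9.93% against 7.47%, in the Gadd45a-KO-labelled libraries 7.33% against 7.17%, and in those labelled DKO 3.93% against 6.24%.

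**Figure D1:**
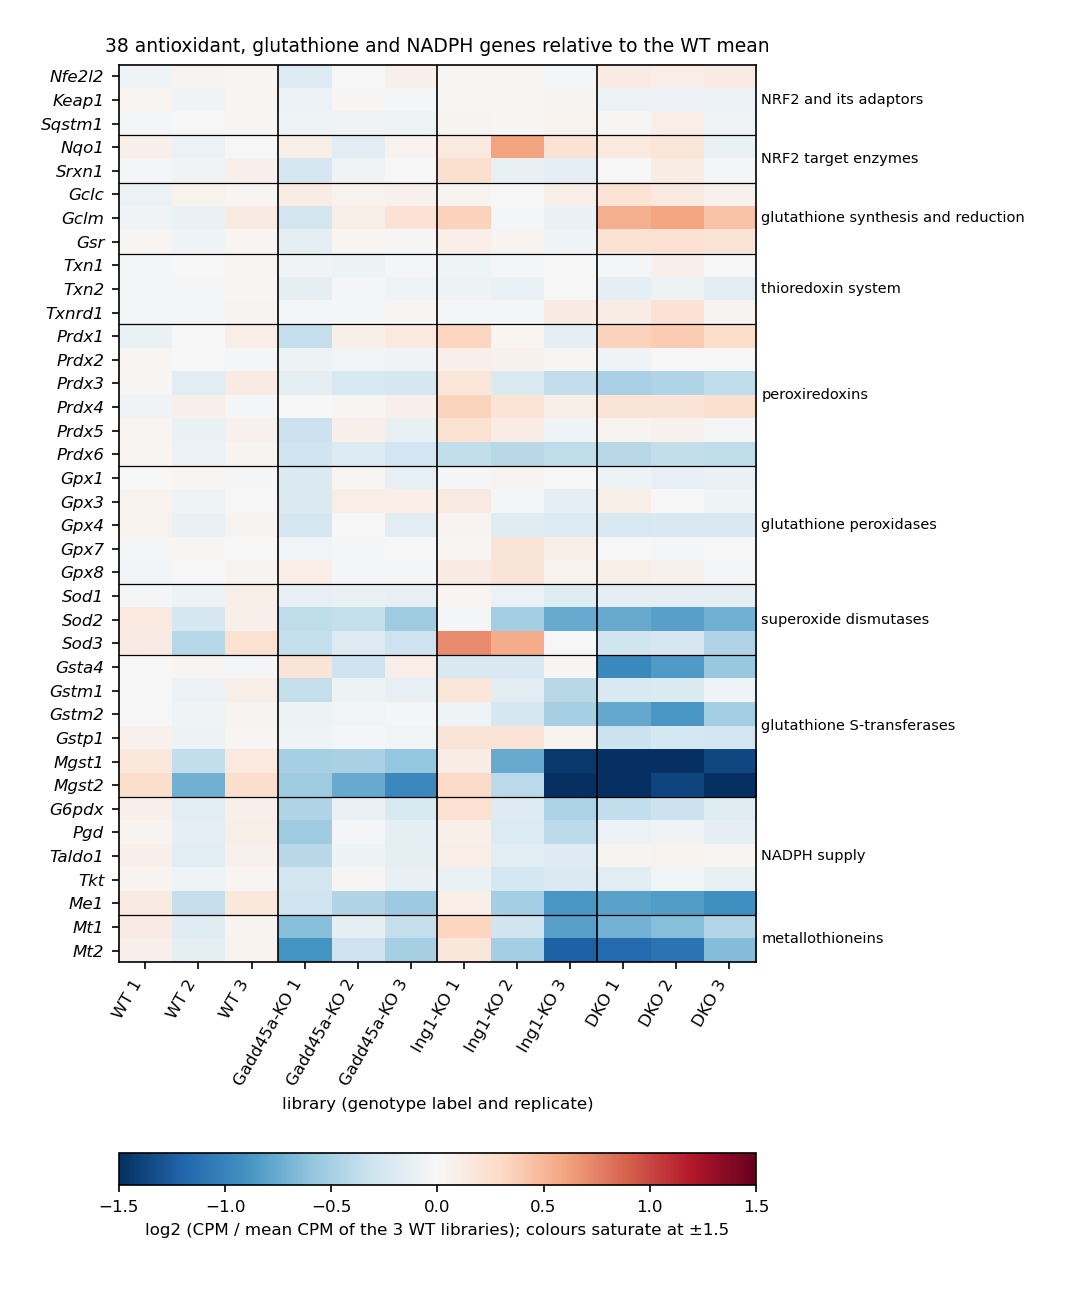
Level of each of the 38 genes in each library, as log2 of its CPM over the mean CPM of the 3 WT libraries (red higher, blue lower, colours saturate at ±1.5), in rows by role and columns by genotype label and replicate. Mgst1 and Mgst2 are darkest in the 3 libraries labelled DKO and in Ing1-KO replicate 3, and Gclm is red in all 3 libraries labelled DKO.

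The libraries labelled DKO differed most from WT. By edgeR's quasi-likelihood test with Benjamini-Hochberg adjustment over all genes, 12 of the 38 genes were called at an adjusted p under 0.05, where 13% of all genes tested were called. Of the 12, 3 were higher (5.94% of all genes were called higher) and 9 lower (7.09% were called lower). Of the 9 lower genes, 5 were glutathione S-transferases, and the higher ones were Gclm and Gsr of glutathione synthesis and reduction and the peroxiredoxin Prdx4. The median log2 fold change of the 38 was -0.10, against -0.00 over all genes. In 17 of the 38 all 3 libraries labelled DKO lay below all 3 WT libraries, and in 7 they lay above, where 19.7% and 17.6% of all genes did so.

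**Figure D2:**
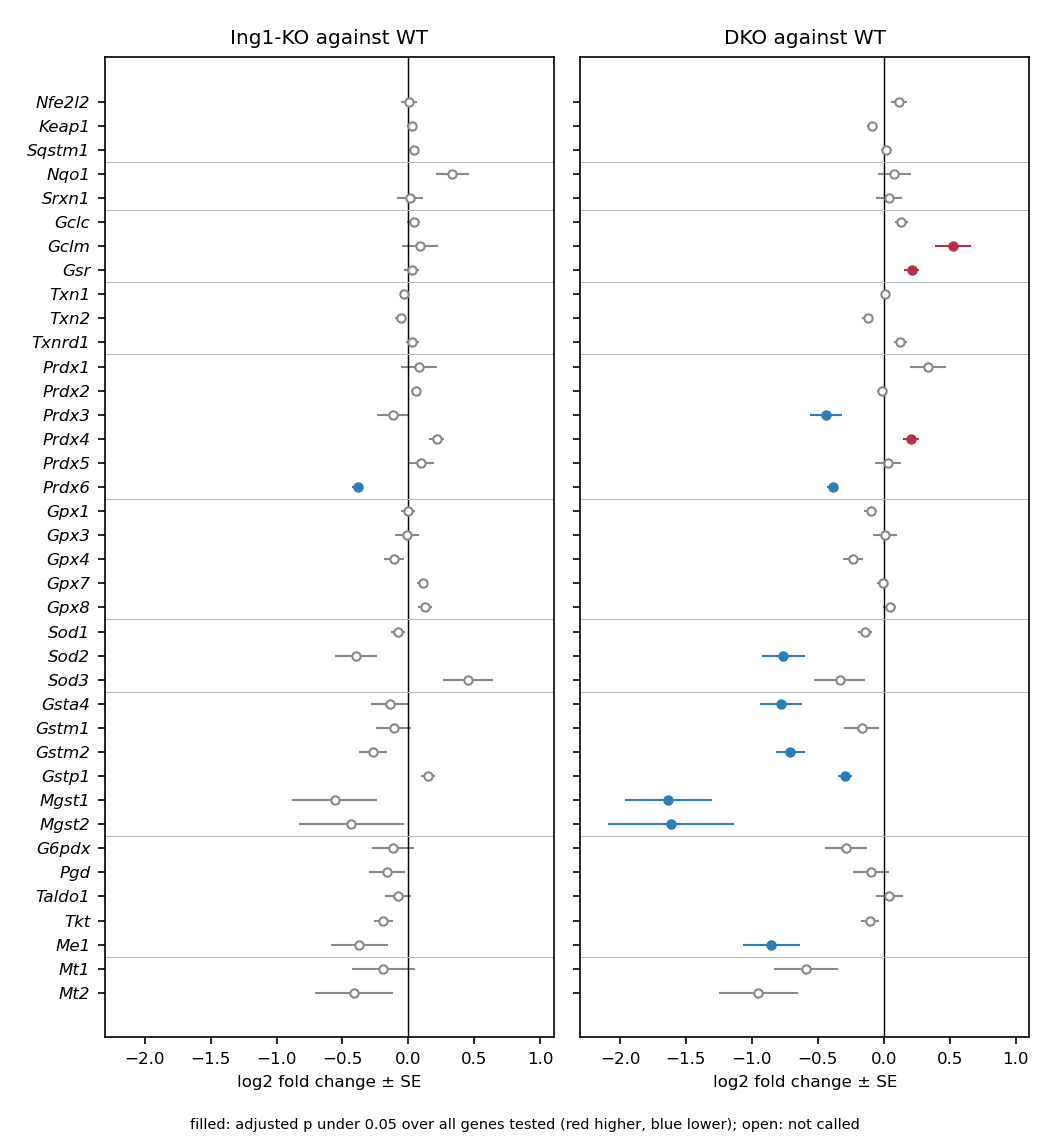
Log2 fold change and its SE for each of the 38 genes in Ing1-KO against WT (left) and in the libraries labelled DKO against WT (right); filled points were called at an adjusted p under 0.05. In Ing1-KO only Prdx6 is filled, and in the libraries labelled DKO 12 genes are, 3 to the right of 0 and 9 to the left.

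The transferases attach glutathione to reactive compounds, and Mgst1 and Mgst2 are their membrane-bound relatives. Mgst1, which also reduces lipid peroxides, was at 143, 99.2 and 142 CPM in WT and at 40.2, 34.0 and 49.6 CPM in the libraries labelled DKO. All 3 of the latter lay below every WT library and below the Gadd45a-KO-labelled ones, at 85.8 to 91.4 CPM. Its log2 fold change against WT was -1.63 ± 0.33 (SE; edgeR adjusted p = 0.0151), a level of 32.2% of WT. Ing1-KO was spread across the whole range, at 138, 75.6 and 47.1 CPM in replicates 1, 2 and 3. The call was lost without WT replicate 1 or 3 or DKO replicate 1 or 2.

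Mgst2, linked to leukotriene synthesis, was low everywhere, at 1.93, 0.975 and 1.93 CPM in WT and 0.516, 0.618 and 0.454 CPM in the libraries labelled DKO. The groups did not overlap, with a log2 fold change of -1.61 ± 0.48 (SE; edgeR adjusted p = 0.0495). This call sits just inside the threshold and was lost in 9 of the 12 fits that left out 1 library; it held without WT replicate 2 and without Ing1-KO replicate 1 or 3.

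Gstm2, a cytosolic mu-class transferase, was at 71.4, 68.1 and 73.2 CPM in WT and 41.6, 38.7 and 49.9 CPM in the libraries labelled DKO. The single mutants lay at 67.3, 69.1 and 69.4 CPM (labelled Gadd45a-KO) and at 67.6, 58.8 and 50.1 CPM (Ing1-KO). The libraries labelled DKO were the lowest 3 of the 12, with the highest of them just under Ing1-KO replicate 3. The log2 fold change against WT was -0.71 ± 0.11 (SE; edgeR adjusted p = 0.00569), and the call held whichever library was left out.

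Gsta4, an alpha-class transferase that clears the lipid peroxidation product hydroxynonenal, was at 3.04, 3.08 and 2.97 CPM in WT and 1.55, 1.68 and 2.04 CPM in the libraries labelled DKO. Its level was 3.47, 2.43 and 3.25 CPM with the Gadd45a-KO label and in Ing1-KO 2.59, 2.58 and 3.08 CPM, so the libraries labelled DKO were below each of the other 9. The log2 fold change against WT was -0.78 ± 0.16 (SE; edgeR adjusted p = 0.0136). This call, like that of Gstp1, was lost without WT replicate 1 or DKO replicate 1.

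Gstp1, the pi-class transferase, was at 26.4, 24.0 and 25.6 CPM in WT and at 20.3, 21.0 and 20.8 CPM in the libraries labelled DKO. The libraries labelled Gadd45a-KO, at 24.3 to 24.9 CPM, and Ing1-KO, at 26.2 to 29.2 CPM, all lay above them. The log2 fold change against WT was small, -0.29 ± 0.05 (SE; edgeR adjusted p = 0.00957). Of the 51-base words of Gstp1 transcripts, 33.5% also occur in other genes, among them its near copy Gstp2. Its level can therefore be undercounted. The remaining transferase of the 6, Gstm1, overlapped between WT (22.8 to 25.9 CPM) and the libraries labelled DKO (20.7 to 23.2 CPM), with a log2 fold change of -0.17 ± 0.13 (SE; edgeR adjusted p = 0.446).

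**Figure D3:**
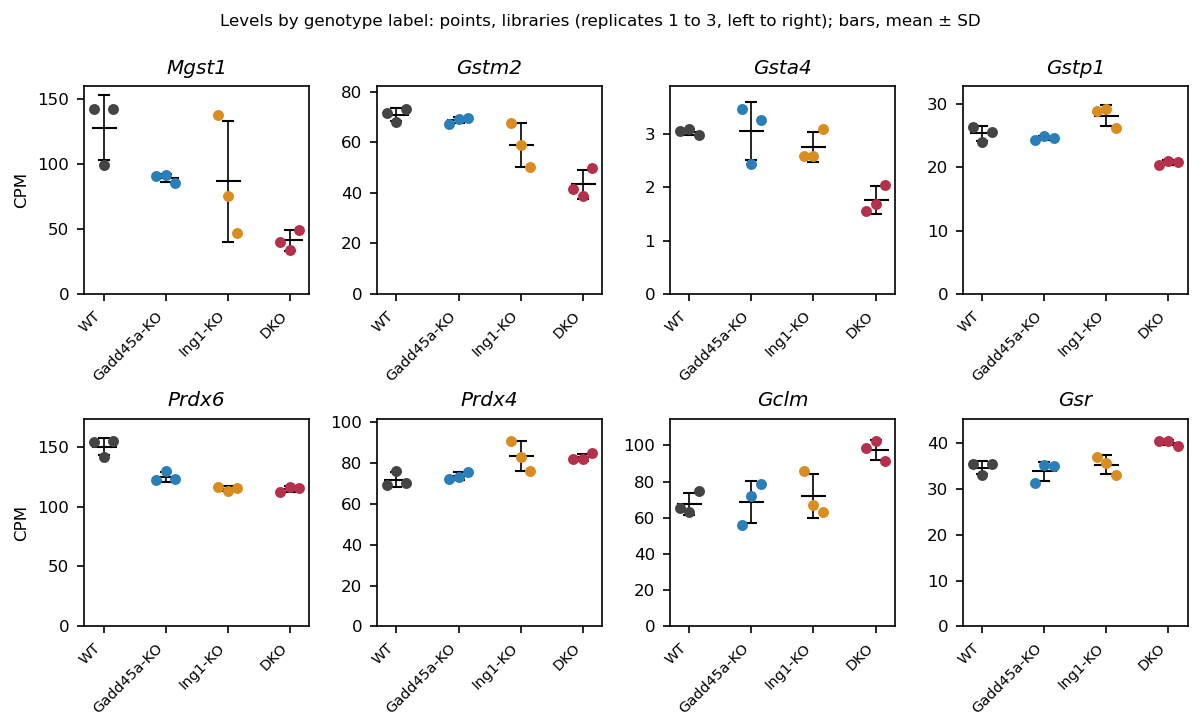
CPM of 4 transferases (top row) and of Prdx6, Prdx4, Gclm and Gsr (bottom row) in each library by genotype label, with bars at the mean ± SD of 3 libraries and axes starting at 0. The libraries labelled DKO are the lowest group for Gstm2, Gsta4 and Gstp1 and the highest for Gclm and Gsr, while every library of the 3 mutant groups lies below WT for Prdx6.

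In glutathione synthesis and reduction, Gclm and Gsr were called higher and Gclc was not called. Gclm encodes the modifier subunit of glutamate-cysteine ligase, the first enzyme of glutathione synthesis. It was at 65.5, 63.3 and 74.6 CPM in WT and 98.6, 102 and 91.5 CPM in the libraries labelled DKO, the highest 3 of the 12. The single mutants lay at 55.8, 72.2 and 78.5 CPM (labelled Gadd45a-KO) and at 85.9, 66.8 and 63.3 CPM (Ing1-KO). The log2 fold change against WT was 0.53 ± 0.14 (SE; edgeR adjusted p = 0.0344).

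Gsr, glutathione reductase, which returns oxidised glutathione to its working form with NADPH, was at 35.5, 33.0 and 35.5 CPM in WT and at 40.4, 40.5 and 39.5 CPM in the libraries labelled DKO. The groups did not overlap, and the log2 fold change was 0.21 ± 0.06 (SE; edgeR adjusted p = 0.0339). Gclc, the catalytic partner of Gclm, had 27.0 to 29.7 CPM in WT and 29.9 to 32.9 CPM in the libraries labelled DKO, and was not called (log2 fold change 0.13 ± 0.05, edgeR adjusted p = 0.114). Gclm passed the test in 6 and Gsr in 5 of the 12 fits that left out 1 library, and neither passed when any 1 library of WT or of those labelled DKO was left out.

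Among the peroxiredoxins, Prdx6, which reduces phospholipid peroxides with glutathione, had the smallest adjusted p of the 38. It was at 154, 142 and 155 CPM in WT and at 112, 116 and 115 CPM in the libraries labelled DKO, with a log2 fold change of -0.39 ± 0.04 (SE; edgeR adjusted p = 0.00139). The highest of the latter lay below the lowest WT library, and the call held whichever library was left out.

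Prdx3, the mitochondrial peroxiredoxin, was at 79.1, 70.4 and 85.4 CPM in WT and 55.7, 57.5 and 60.3 CPM in the libraries labelled DKO (log2 fold change -0.44 ± 0.12 SE, edgeR adjusted p = 0.0413). Prdx4, the peroxiredoxin of the endoplasmic reticulum, was at 69.3, 75.9 and 70.1 CPM in WT and 81.8, 81.8 and 84.7 CPM in those labelled DKO (log2 fold change 0.21 ± 0.06 SE, edgeR adjusted p = 0.0432). In neither gene did the groups overlap, but both calls passed in only 4 of the 12 fits that left out 1 library, those without Ing1-KO replicate 1, Ing1-KO replicate 3, WT replicate 2 and Gadd45a-KO replicate 1. Prdx1 was above WT in all 3 libraries labelled DKO, at 605 to 651 CPM against 465 to 533 CPM, and did not pass the test (log2 fold change 0.34 ± 0.14 SE, edgeR adjusted p = 0.133). Prdx2, the cytosolic partner of Prdx1, and Prdx5, found in several compartments, were within 0.03 of 0 on the log2 scale.

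Of the superoxide dismutases, only the mitochondrial one, Sod2, was called. It was at 80.9, 61.7 and 76.9 CPM in WT and 43.4, 41.5 and 44.6 CPM in the libraries labelled DKO, which lay below every WT library (log2 fold change -0.76 ± 0.16 SE, edgeR adjusted p = 0.0177). The call was lost without the same 4 libraries as that of Mgst1, each left out alone. The cytosolic Sod1 was also below WT in all 3 libraries labelled DKO, at 74.9 to 75.1 CPM against 78.7 to 87.9 CPM, without passing the test (edgeR adjusted p = 0.0936). The secreted Sod3 overlapped, at 76.3 to 87.7 CPM against 77.6 to 123 CPM (log2 fold change -0.33 ± 0.19 SE, edgeR adjusted p = 0.288).

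In NADPH supply, Me1, cytosolic malic enzyme, was at 240, 173 and 245 CPM in WT and 126, 123 and 116 CPM in the libraries labelled DKO. The groups did not overlap, and the log2 fold change was -0.85 ± 0.22 (SE; edgeR adjusted p = 0.0313); the call was lost without WT replicate 1 or 3 or any library labelled DKO. The 4 pentose phosphate genes were not called: log2 fold changes were -0.29 for G6pdx and -0.09 for Pgd, the 2 dehydrogenases that make NADPH, and 0.04 for Taldo1 and -0.10 for Tkt, which recycle the sugars. The 5 genes summed to 880 ± 89.2 CPM in WT, against 737 ± 14.5 CPM with the DKO label (SD, n = 3 each).

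The metallothioneins missed the threshold. Mt2 was at 84.4, 71.9 and 83.1 CPM in WT and 35.7, 37.1 and 50.8 CPM in the libraries labelled DKO, a log2 fold change of -0.95 ± 0.30 (SE; edgeR adjusted p = 0.0641), the largest among genes not called. Mt1 was at 99.2, 79.9 and 93.8 CPM in WT and 55.7, 58.6 and 66.9 CPM in those labelled DKO (log2 fold change -0.59 ± 0.24 SE, edgeR adjusted p = 0.137). Neither gene overlapped between the groups, and both were called lower when only these 6 libraries were fitted.

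Nfe2l2, Keap1, Sqstm1 and the enzymes grouped as NRF2 targets, Nqo1 and Srxn1, were not called. Other genes of the 38 that NRF2 can switch on, Gclm among them, are given under their own roles. Nfe2l2, which encodes NRF2, was at 119, 128 and 125 CPM in WT and 136, 133 and 135 CPM in the libraries labelled DKO. All 3 of these were above WT, by a log2 fold change of 0.12 ± 0.06 that did not pass (SE; edgeR adjusted p = 0.228). Its adaptor Keap1 was at 48.5 to 51.1 CPM in WT and 47.1 to 47.2 CPM in those labelled DKO (log2 fold change -0.09 ± 0.04 SE, edgeR adjusted p = 0.143), and Sqstm1, an autophagy receptor that binds KEAP1, differed by 0.02. The target enzymes Nqo1 and Srxn1, the latter a repair enzyme for peroxiredoxins, overlapped with WT, at log2 fold changes of 0.08 ± 0.13 and 0.04 ± 0.10 (SE).

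None of the thioredoxin genes or of the 5 glutathione peroxidases was called. Txnrd1, cytosolic thioredoxin reductase, was at 133 to 140.2 CPM in WT and 140.5 to 158 CPM in the libraries labelled DKO, so that the nearest libraries of the groups almost met (log2 fold change 0.13 ± 0.05 SE, edgeR adjusted p = 0.126). The mitochondrial thioredoxin Txn2 was just below (log2 fold change -0.12 ± 0.04 SE, edgeR adjusted p = 0.0665), and Txn1 differed by 0.01. Of the peroxidases, Gpx4 came nearest, at 169 to 189 CPM in WT and 153 to 156 CPM in those labelled DKO (log2 fold change -0.24 ± 0.08 SE, edgeR adjusted p = 0.0613). The cytosolic Gpx1 was at -0.10, and the plasma peroxidase Gpx3 and the endoplasmic reticulum peroxidases Gpx7 and Gpx8 lay between -0.01 and 0.04.

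The adipocyte markers also differed between the libraries labelled DKO and WT. When their mean log2 level was added to the fit as a covariate, 0 of the 38 genes were called between the libraries labelled DKO and WT, and 44 of all genes were. Of the lower genes, 5 then had log2 fold changes above 0: Prdx3 0.20, Sod2 0.13, Mgst1 0.14, Mgst2 0.83 and Me1 0.31, none of them called. Gclm was at 0.95, Gsta4 at -1.05 and Prdx6 at -0.32, on the same side as before, with edgeR adjusted p of 0.147, 0.150 and 0.122. The mean log2 level of the markers was 2.23 to 2.49 in the libraries labelled DKO and 2.87 to 6.31 in the other 9, so genotype and marker level cannot be told apart in this comparison. The part of the leukocyte markers, which were higher in the libraries labelled DKO, was not tested.

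Within Ing1-KO many of the 38 genes were ordered like the adipocyte markers, a comparison chosen after the values had been seen. The marker sum was 3992, 1363 and 483 CPM in replicates 1, 2 and 3, and 23 of the 38 genes (60.5%) followed that order, against 25.2% of all genes tested. Mgst1 went from 138 to 75.6 to 47.1 CPM, Sod2 from 71.8 to 51.5 to 43.3, Me1 from 235 to 154 to 119 and Mt2 from 90.1 to 55.8 to 34.0 CPM. Gclm, Gsr and Prdx4 followed it as well, with Gclm at 85.9, 66.8 and 63.3 CPM, although they were called higher in the libraries labelled DKO, where the markers were low. Prdx6, Gsta4 and Gstp1 did not follow it. Ing1-KO replicate 3 lay within the range of the libraries labelled DKO for Mgst1, Sod2 and Me1 and below it for Mt2. In WT, where the sum spanned 2229 to 4547 CPM, 13 of the 38 (34.2%) kept the order of the markers, against 21.9% of all genes, and replicate 2, with the lowest sum, was the lowest WT library for 26 of the 38 (68.4%), against 39.1% of all genes. With the Gadd45a-KO and DKO labels, where the sum spanned less, 2 and 3 of the 38 did so, against 11.2% and 21.2% of all genes. Within the libraries labelled DKO 15 of the 38 (39.5%) ran in the opposite order, against 20.5% of all genes. Gclm, Gsr and Mgst2 were among them. Other markers were ordered too. In replicates 1, 2 and 3 the contractile sum was 5092, 6443 and 7307 CPM in Ing1-KO and 5078, 6383 and 6045 CPM in WT. Both are the reverse of the adipocyte order, as was the fibroblast sum in Ing1-KO, while leukocyte and cartilage sums there kept neither order. The order of 3 libraries thus cannot tie these genes to 1 cell type.

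**Figure D4:**
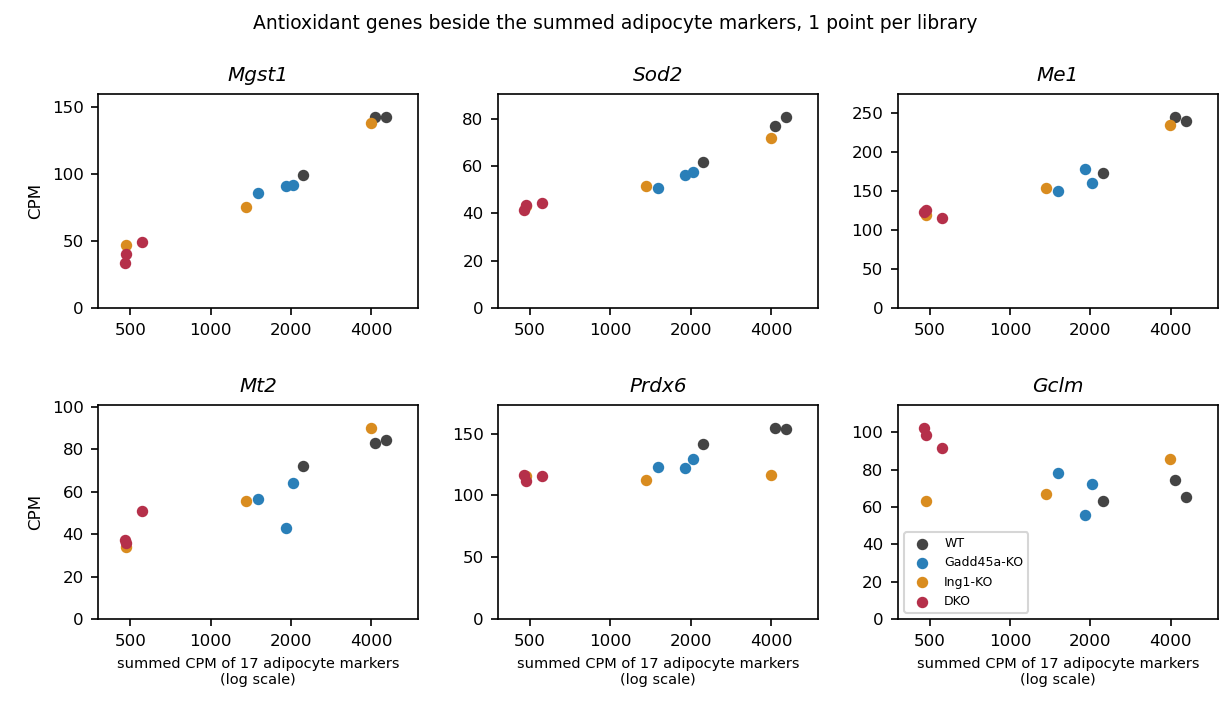
CPM of 6 genes (vertical axes from 0) beside the summed CPM of 17 adipocyte markers (horizontal log axis), 1 point per library, coloured by genotype label. Mgst1, Sod2 and Me1 are lowest at the left, where Ing1-KO replicate 3 (483 CPM) sits among the libraries labelled DKO (476 to 555 CPM), while Prdx6 is at 113 to 116 CPM in Ing1-KO at every marker level and Gclm is high at the left in the libraries labelled DKO alone.

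In Ing1-KO against WT, 1 of the 38 genes was called, and lower, where 4.32% of all genes were called, 2.4% higher and 1.92% lower. This was Prdx6, at 116, 113 and 116 CPM in Ing1-KO, below all 3 WT libraries, with a log2 fold change of -0.38 ± 0.04 (SE; edgeR adjusted p = 0.00163). It was as low in replicate 1, whose adipocyte marker sum lay within the WT range, as in replicate 3. With the marker level as a covariate the log2 fold change was -0.36 (edgeR adjusted p = 0.00210). The call held whichever library was left out. In WT, Prdx6 was lowest in replicate 2, which also had the lowest marker sum, at 142 CPM against 154 and 155 CPM. No cause of the Prdx6 difference was tested.

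Of the other 37 genes, log2 fold changes ran from -0.56 to 0.45, with a median over the 38 of -0.02 against 0.00 over all genes. The libraries did not overlap for 3 genes below WT and 5 above, where 12.5% and 14.2% of all genes did so. The largest differences not called were Mgst1 at -0.56 ± 0.32, Sod3 at 0.45 ± 0.19, Mgst2 at -0.43 ± 0.40 and Mt2 at -0.41 ± 0.30 (SE). Sod3 was at 171, 154 and 105 CPM in Ing1-KO and 114, 77.6 and 123 CPM in WT, so the groups overlapped. Prdx4 was at 90.7, 82.7 and 76.2 CPM in Ing1-KO, each above WT, and just missed the call (log2 fold change 0.21 ± 0.06 SE, edgeR adjusted p = 0.0666). Leaving out Ing1-KO replicate 3 or 1 gave further calls. Without replicate 3 there were 4 calls, with Prdx4, Sod3 and Gstp1 higher, where 7.34% of all genes were called. Without replicate 1 there were also 4, with Sod2, Mgst1 and Me1 lower, where 5.33% of all genes were. Prdx6 was the other gene both times.

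With the Gadd45a-KO label, 0 of the 38 genes were called against WT by edgeR, where 0.0124% of all genes were, 0.00619% higher and 0.00619% lower. At an unadjusted p under 0.05 there were 2 of the 38, Prdx6 and Sod2, and 886 of the 16163 genes tested. DESeq2 called 1 of the 38, Prdx6, and 0.0433% of all genes. Prdx6 was at 122, 130 and 123 CPM, below the 3 WT libraries and above all 6 Ing1-KO and DKO-labelled ones, with a log2 fold change of -0.26 ± 0.04 (SE; edgeR adjusted p = 0.181). Log2 fold changes ran from -0.74 to 0.08 and were below 0 for 32 of the 38, with a median of -0.09 against -0.00 over all genes. In 8 of the 38 all 3 libraries lay below all 3 of WT and in 0 above, where 7.61% and 4.6% of all genes did so. The largest differences were Mgst2 at -0.74 ± 0.42, Mt2 at -0.55 ± 0.30, Mgst1 at -0.52 ± 0.32 and Me1 at -0.43 ± 0.22 (SE). Replicate 1 was the lowest of the 3 libraries labelled Gadd45a-KO for 28 of the 38 genes (73.7%), against 40.3% of all genes, and its leukocyte marker sum, 1920 CPM, was below the 5291 and 5664 CPM of the others. Without it the median of the 38 was -0.05 and 0 were called, where 0.202% of all genes were. Whether the leukocyte level of replicate 1 bears on these values was not tested.

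The libraries labelled DKO were also set against each single mutant. These comparisons share the libraries labelled DKO with each other and with the comparison to WT, and so are not independent of it. Against the libraries labelled Gadd45a-KO, 3 of the 38 were called, all lower and all transferases, where 1.26% of all genes were called, 0.662% higher and 0.594% lower. The libraries did not overlap for 10 genes below and 7 above, against 13.6% and 12.4% of all genes. Leaving out 1 library moved the count to between 0 and 6, and the share of all genes called to between 0.0366% and 3.60%. The 3 called were Gsta4 (log2 fold change -0.79 ± 0.16 SE), Gstm2 (-0.66 ± 0.11 SE) and Gstp1 (-0.25 ± 0.05 SE). Their edgeR adjusted p were 0.0390, 0.0239 and 0.0472. Among the genes not called, Mgst1 (-1.12 ± 0.33), Mgst2 (-0.87 ± 0.52), Gclm (0.50 ± 0.14) and Me1 (-0.43 ± 0.22; SE) differed most.

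Against Ing1-KO, 4 of the 38 were called, all lower, where 11.7% of all genes were called, 5.91% higher and 5.76% lower. The libraries did not overlap for 10 genes below and 3 above, against 16.8% and 17.4% of all genes. The same 3 transferases were among them: Gsta4 at -0.64 ± 0.16, Gstm2 at -0.44 ± 0.11 and Gstp1 at -0.44 ± 0.05 (SE), with edgeR adjusted p of 0.0310, 0.0315 and 0.00530. The other gene was Sod3, extracellular superoxide dismutase, at 85.3, 87.7 and 76.3 CPM in the libraries labelled DKO and 171, 154 and 105 CPM in Ing1-KO (log2 fold change -0.79 ± 0.19 SE, edgeR adjusted p = 0.0334). Prdx6 did not differ detectably here: it was at 112 to 116 CPM in the libraries labelled DKO and 113 to 116 CPM in Ing1-KO, a log2 fold change of -0.00 ± 0.04 (SE). Among the genes not called, Mgst2 (-1.18 ± 0.50), Mgst1 (-1.07 ± 0.33), Mt2 (-0.54 ± 0.30) and Me1 (-0.48 ± 0.22; SE) differed most, and each overlapped through Ing1-KO replicate 3. Without that replicate 11 of the 38 were called, all lower, where 19.6% of all genes were called. Without DKO replicate 1 there were 0, where 0.0122% of all genes were.

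Whether the lesions together differed from the sum of each alone was tested as an interaction. It was called for 0 of the 38 genes and 0% of all genes by edgeR. At an unadjusted p under 0.05 there were 6 of the 38 and 2204 of all genes. DESeq2 called 2 of the 38, Prdx6 and Gstp1, and 173 of all genes. The smallest edgeR adjusted p was 0.141, for Gstp1 (-0.40 ± 0.07 SE on the log2 scale). Prdx6 was at 0.26 ± 0.06 (SE; edgeR adjusted p = 0.181): its log2 difference from WT was -0.26 with the Gadd45a-KO label, -0.38 in Ing1-KO and -0.39 with the DKO label. The largest departures were Gsta4 at -0.65 ± 0.21, Mgst1 at -0.56 ± 0.45, Sod3 at -0.50 ± 0.27 and Mgst2 at -0.44 ± 0.66 (SE).

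Beside the 38, 74 further genes of the same pathways were examined, of which 68 were tested. Between the libraries labelled DKO and WT, 5 of them were called higher and 7 lower, against the 5.94% and 7.09% of all genes given above. By smallest adjusted p these were led by Ggct, a cyclotransferase that acts on gamma-glutamyl amino acids, at 4.22, 3.95 and 4.12 CPM in WT and 1.55, 1.77 and 2.02 CPM in those labelled DKO (log2 fold change -1.20 ± 0.15 SE, edgeR adjusted p = 0.00257). Then came Ggt7, of the family that breaks down extracellular glutathione (-0.47 ± 0.09), Bach1, a repressor at antioxidant response elements (0.42 ± 0.08), and H6pd, which makes NADPH in the endoplasmic reticulum (-0.44 ± 0.10; SE on the log2 scale).

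The remaining called genes were named after their values were seen. The lower ones were Mgst3, a microsomal transferase (-1.10 ± 0.28), the methionine sulfoxide reductase Msra (-0.79 ± 0.20), Oplah, which turns oxoproline into glutamate (-0.76 ± 0.21), and the transferase Gstz1 (-0.45 ± 0.11; SE on the log2 scale). The higher ones were the cystine carrier Slc7a11 (0.42 ± 0.11), Osgin1 (0.46 ± 0.14), biliverdin reductase Blvrb (0.66 ± 0.19) and the transferase Gsta3 (1.27 ± 0.35; SE on the log2 scale). Of the 13 further transferases tested, Gsta3 was thus the 1 called higher and 2 were called lower. Gsta3 was at 6.03, 5.76 and 3.69 CPM in the libraries labelled DKO and 1.91, 1.76 and 2.71 CPM in WT. Of 11 further genes of glutathione synthesis and turnover 0 were called higher and 3 lower, and Gss, glutathione synthetase, was not called (-0.04 ± 0.09 SE on the log2 scale). The NRF2 target Hmox1, heme oxygenase, was at 281 to 306 CPM in the libraries labelled DKO and 235 to 292 CPM in WT, and catalase (Cat) at 186 to 201 CPM and 160 to 221 CPM; neither was called.

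Ggct was also lower against the libraries labelled Gadd45a-KO (log2 fold change -1.07 ± 0.16 SE, edgeR adjusted p = 0.0145). It was the 1 call among the 68 there, where 1.26% of all genes were called. Against Ing1-KO 4 of the 68 were called higher and 6 lower, where 5.91% and 5.76% of all genes were. These calls were led by Ggct (-1.29 ± 0.15), Bach1 (0.44 ± 0.08), Me2, the mitochondrial malic enzyme (0.21 ± 0.04), and the transferase Gstm5 (-0.24 ± 0.06, all SE on the log2 scale). Me2 was the 1 call of the 68 in Ing1-KO against WT, where 4.32% of all genes were called. It was at 39.9, 40.1 and 40.2 CPM in Ing1-KO and 45.6, 49.1 and 45.9 CPM in WT (log2 fold change -0.23 ± 0.04 SE, edgeR adjusted p = 0.0154).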

How the data were processed

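Genotype labels set the groups. The authors deposited raw counts for each Ensembl gene. TopHat2 2.0.9, Bowtie2 2.1.0, HTSeq 0.5.4 and the builds mm9 and NCBIM37 are named in the submitters' processing notes; no source used here gives the strand setting or counting mode. Lines that name no gene, 24.2% to 24.8% of each library and mostly reads that do not map uniquely, were left out. Genes that share sequence with others can therefore be undercounted. Of their 51-base words, Mt2 shares 45.2%, Gpx4 34.5%, Gstp1 33.5% and Me1 27.9% with other genes. Sod2 shares 20.8%, spread over 346 other genes. Where strand was ignored, reads of overlapping and antisense genes cannot be told apart. Symbols came from a table of a later annotation.

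Computed here were CPM on TMM-scaled libraries and tests with edgeR 4.0.16 in R 4.3.3: filterByExpr by genotype, robust dispersions, and the robust quasi-likelihood fit of genotype means over all 12 libraries, with no fold minimum. The bias-adjusted form of that fit (legacy=FALSE) was chosen after values had been seen, when several forms had been compared, because its counts over all genes were those of an earlier analysis of these files. The package's default form is an added alternative. SE was taken as the size of the log2 fold change over the root of its F statistic. CPM per kb uses the union of annotated exons. The 38 genes and all lists were chosen with earlier results of these data known; the promoter stretches shown, the order by adipocyte markers and the counts of lowest libraries were chosen after values had been seen. Every called gene is named, and of the rest the 4 with the largest change per comparison; of the further pathway genes, the 4 with the smallest adjusted p. Other genes are said to be chosen after their values were seen, or are named to account for all 38.

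As alternatives, the fit was repeated with upper-quartile or RLE factors, with no filter, by DESeq2 1.42.0, and with the replicate number as a block, the adipocyte marker score as covariate (mean log2 CPM, prior count 2), only the 6 libraries compared, and leaving out each library. No pair of replicates was alike within sampling noise. The test steps were first tried on simulated counts.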

Additional observations from a re-analysis of the deposited data

How the results depend on the processing

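RLE factors and the default quasi-likelihood form, the latter added after seeing the data, left the number of called genes within 1.5 times its value in every comparison, and so did upper-quartile factors. The 12 calls between the libraries labelled DKO and WT became 7 with no filter on low counts, 19 with only the 6 libraries compared and 0 with the adipocyte score as covariate; 2 to 15 were called when 1 library was left out. The lowest count, 2 (Prdx6 and Gstm2), came without WT replicate 1 and without DKO replicate 1; without WT replicate 3 or DKO replicate 2 there were 4, and without DKO replicate 3 there were 6. Over all genes, the share called went from 13% to 5.68% with no filter, 20.4% with 6 libraries and 0.272% with the covariate. With no filter it is a share of more genes. It was 1.81% to 16.8% when 1 library was left out. With the covariate Prdx3, Sod2, Mgst1, Mgst2 and Me1 changed sign (0.20, 0.13, 0.14, 0.83 and 0.31). For Ing1-KO against WT the 1 call became 4 with the covariate and 2 by DESeq2, and 1 to 4 without 1 library. The share of all genes called went from 4.32% to 9.48%, 7.77% and 0.617% to 7.34% in these fits. Against the libraries labelled Gadd45a-KO the 3 calls became 0 with the covariate, 5 with only 6 libraries and 6 by DESeq2; leaving out 1 library gave 0 to 6 (0 without Gadd45a-KO replicate 3 or DKO replicate 1 or 2; 1 without any 1 of WT, Gadd45a-KO replicates 1 and 2 or Ing1-KO replicate 2; 6 and 5 without Ing1-KO replicates 1 and 3). Against Ing1-KO the 4 calls became 0 with the covariate, 2 with only 6 libraries and 7 by DESeq2; leaving out 1 library gave 0 to 11 (0 without DKO replicate 1; 1 without Ing1-KO replicate 1 or 2 or DKO replicate 2; 7 without Gadd45a-KO replicate 1; 11 without Ing1-KO replicate 3). The 0 calls became 1 by DESeq2 for the libraries labelled Gadd45a-KO against WT, and 2 by DESeq2 for the interaction, where leaving out 1 library gave 0 to 1 (Gstp1, without Ing1-KO replicate 3). The share of all genes called moved too. Against the libraries labelled Gadd45a-KO it went from 1.26% to 0.421% with the covariate, 2.73% with only 6 libraries and 7.75% by DESeq2. Against Ing1-KO it went from 11.7% to 0.0186%, 7.88% and 18.1% in the same fits. Leaving out 1 library gave 0.0366% to 3.60% and 0.0122% to 19.6%. By DESeq2 it was 0.0433% for the libraries labelled Gadd45a-KO against WT and 1.07% for the interaction. No cause of these changes was tested, the number of samples included.

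With the replicate number as a block, calls went from 12 to 7 for the libraries labelled DKO against WT. They went from 3 to 0 against those labelled Gadd45a-KO and from 4 to 2 against Ing1-KO, and the other counts did not change. The share of all genes called went from 13% to 11.2%, from 1.26% to 0.588% and from 11.7% to 8.58% in these 3 comparisons. For Ing1-KO against WT it went from 4.32% to 3.54%. The replicate numbers do not pair the libraries. Deviations of same-numbered libraries correlated between -0.19 and 0.25, above 0.1 in 2 of 18 pairs, and 5 of 12 libraries correlated best with their own number. With 3 libraries a genotype, a missed threshold does not show that a gene was equal between genotypes.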
